A study of Mus musculus with 203 samples.

Results

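The genes described here are 46 genes of the cell cycle and of DNA replication, which were taken by symbol from the tables of both RNA-seq experiments and were listed in each of them, 46 of 25094 genes in the table of RAW cells and 46 of 16478 in that of BMDMs. By role they are 12 genes of replication licensing and the fork, 8 of DNA synthesis and nucleotide supply, 10 regulators of the G1/S step, 13 of mitosis and 3 CDK inhibitors. RAW264.7 (RAW) cells are a proliferating mouse macrophage line, labelled BALB/c. Stable lines carried a lentiviral short hairpin against GFP (shGFP, the control) or against the histone demethylase KDM1A (shKDM1A), both selected with puromycin, and each was left without IL4 or kept for 6 h in IL4 at 20 ng/ml, and each of the 4 groups has 4 libraries. Each arm is a single line as far as the sources used here tell, so the effect of the hairpin and a difference between lines cannot be told apart. The study's methods state that its experiments used biological replicates, without saying for these libraries what a replicate was, and the labels do not name separate cultures. The p-values thus measure the spread between these libraries. For BMDMs, primary macrophages grown from the bone marrow of C57BL/6 mice (WT and macrophage-specific *Gps2* KO), the table used here holds the authors' own comparisons with no value per library, and no value of the 46 genes is given for them.

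A cell prepares to copy its DNA by loading the MCM helicase onto chromatin with CDC6 and CDT1, and D-type cyclins with CDK4 and CDK6, then cyclin E with CDK2, release E2F transcription factors from the retinoblastoma protein. E2F drives the genes of licensing and synthesis, while many genes of mitosis are transcribed later in the cycle through promoters with a CHR element (the cell cycle genes homology region) and CCAAT boxes. CDK inhibitors such as p21 (*Cdkn1a*), a target of p53, hold these kinases back. Macrophages of a tissue mostly rest, whereas a macrophage line cycles without a stimulus, and IL4, the cytokine of alternative activation, acts through STAT6.

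Promoters from 250 bases before to 50 bases after the annotated start were found for 38 of the 46 genes in RefSeq (GRCm38.p6), and those of *Mcm4*, *Gins1*, *Gins2*, *Ccnd1*, *Ccnd2*, *Ccne2*, *Ccna2* and *Aurkb* were not looked for elsewhere. The letters of 4 elements were searched on both strands: the CHR (TTTGAA), the CCAAT box (CCAAT), E2F sites (TTTCCCGC, TTTGGCGC, TTTCGCGC or TTTGCCGC) and the STAT6 palindrome (TTC and GAA with 4 bases between them). A CHR was found in 8 of 11 mitosis genes and in 2 of 9 licensing genes, against 20.2% of 27025 genes with a promoter of the same length. An E2F site was found in 6 of 9 licensing genes and in 1 of 11 mitosis genes, against 2.6% of all genes. The CCAAT box was found in 28 of 38 cell cycle promoters, against 41.1%, and the STAT6 palindrome in 2 of 38, against 8.01%. The 250 bases before the start are shown for 4 genes that the results turn on, 5′ to 3′ on the strand of the gene, with CHR, CCAAT and E2F letters or their reverse complement in capitals.
*Mcm6*, chr1:128359706-128359955, minus strand: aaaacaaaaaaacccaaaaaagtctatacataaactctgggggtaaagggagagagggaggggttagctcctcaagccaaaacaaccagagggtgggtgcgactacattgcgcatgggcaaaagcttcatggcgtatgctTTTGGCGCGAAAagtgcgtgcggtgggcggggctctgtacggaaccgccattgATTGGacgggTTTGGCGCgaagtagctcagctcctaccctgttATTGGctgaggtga
*Cdk1*, chr10:69352913-69353162, minus strand: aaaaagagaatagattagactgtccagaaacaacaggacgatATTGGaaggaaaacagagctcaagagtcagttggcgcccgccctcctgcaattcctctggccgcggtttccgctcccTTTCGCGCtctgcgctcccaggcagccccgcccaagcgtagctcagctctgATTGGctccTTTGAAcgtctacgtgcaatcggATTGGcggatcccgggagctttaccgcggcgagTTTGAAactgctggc
*Ccnb2*, chr9:70421555-70421804, minus strand: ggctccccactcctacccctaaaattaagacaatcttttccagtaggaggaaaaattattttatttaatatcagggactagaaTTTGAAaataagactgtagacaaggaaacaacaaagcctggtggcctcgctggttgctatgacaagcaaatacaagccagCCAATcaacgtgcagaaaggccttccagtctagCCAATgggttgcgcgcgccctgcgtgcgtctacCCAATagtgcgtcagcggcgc
*Mki67*, chr7:135716380-135716629, minus strand: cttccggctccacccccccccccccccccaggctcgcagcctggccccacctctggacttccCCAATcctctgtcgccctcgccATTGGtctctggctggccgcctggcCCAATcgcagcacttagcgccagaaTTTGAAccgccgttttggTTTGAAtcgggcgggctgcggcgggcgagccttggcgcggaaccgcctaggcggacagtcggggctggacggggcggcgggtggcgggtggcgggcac
*Mcm6*, a subunit of the helicase, has E2F letters and CCAAT boxes, *Cdk1*, the mitotic kinase, has all 3 elements, and *Ccnb2* (cyclin B2) and *Mki67* (the proliferation antigen Ki-67) have CHR and CCAAT letters. A match describes the letters and is not evidence that a factor binds there.

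Totals ranged from 17554721 to 27782568 tags per RAW library, and the deposited values are on a log2 scale on which genes with few reads were drawn together by the authors' processing, so differences of low genes are understated. A value is therefore called a log2 value here, and a difference of 1 is 2-fold. The targeted gene, *Kdm1a* (chromosome 4 of mm9 from 136106448 to 136158638), had log2 values of 11.21, 11.23, 11.13 and 11.17 in shGFP cells without IL4 and 10.36, 10.32, 10.23 and 10.29 in shKDM1A cells without IL4. With IL4 they were 11.12, 11.10, 11.12 and 11.07 in shGFP cells and 10.32, 10.33, 10.34 and 10.28 in shKDM1A cells. *Kdm1a* was lower in each of the 8 shKDM1A libraries than in any of the 8 shGFP libraries, at 0.542 times the shGFP level without IL4 and 0.58 times with IL4 (limma, adjusted p = 5.6e-13 and 2.2e-12). The 6 macrophage markers (*Adgre1*, *Csf1r*, *Cd68*, *Itgam*, *Spi1* and *Lyz2*) all passed the filter on low values, and their summed level on the log2 scale was 17.43 to 17.49 in shGFP cells, 17.17 to 17.20 with IL4, 17.67 to 17.70 in shKDM1A cells and 17.61 to 17.71 with IL4. The 9 markers of T cells, B cells and fibroblasts lay at or below a value of 0 in every library. This sum was carried by *Lyz2*, and the markers did not move together: *Adgre1* rose with IL4 by 1.24 in shGFP and 0.90 in shKDM1A cells and *Csf1r* by 0.26 and 0.28, while *Lyz2* was lower at -0.53 and -0.12. On knockdown *Adgre1* was lower at -0.11 without and -0.44 with IL4, and the other 5 were higher. The part of the marker levels in the differences given here was not tested. The 4 shKDM1A libraries with IL4 did not lie together: in 489 transcripts over 8000 bases, the median deviation from the group mean was -0.098 and -0.053 in replicates 1 and 3, and 0.091 and 0.077 in replicates 2 and 4. In shGFP cells without IL4 this deviation ran from -0.066 in replicate 4 to 0.043 in replicate 2, and those libraries were left out only 1 at a time. Differences of *Mki67*, *Cdk6* and *Top2a* that use the shKDM1A group with IL4 are also given without its replicates 1 and 3.

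All 46 genes passed the filter on low values (log2 value 1 or more in 4 or more libraries) together with 12905 genes in all. Levels between genes were compared per length, as the log2 value minus the log2 of the length in kb. In shGFP cells without IL4, 45 of the 46 genes lay above the median of all tested genes, which was 7.62, and their own median was 10.04. *Pcna*, the sliding clamp of the replication fork, had the highest level per length at 12.82, followed by *Cdk4* at 12.70 and *Ccnd1* (cyclin D1) at 11.95. These 3 stood apart from each other beyond their ranges over the 4 libraries. The D-type cyclins differed widely in level, with *Ccnd3* at 10.38 and *Ccnd2* at 0.97, the only one of the 46 below the median of all genes. CDK6 and CDK4 share their cyclin partners, and *Cdk6* at 7.67 was the second lowest, beside *E2f2* at 7.97 and the licensing factor *Cdc6* at 8.04. Lengths are those of the single transcript kept per gene (11512 bases for *Cdk6*, 4839 for *Cdc6*), so these ranks depend on that choice. The MCM2-7 helicase genes ranged from 10.20 (*Mcm4*) to 11.24 (*Mcm5*), and *Mcm10* was lower at 9.10. Among mitosis genes *Cdc20*, which activates the anaphase-promoting complex, was highest at 11.25 and the checkpoint kinase *Bub1* lowest at 9.49. *Cdkn1a* at 10.98 lay well above the other inhibitors, *Cdkn2c* (p18) at 9.61 and *Cdkn1b* (p27) at 8.06.

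**Figure D1:**
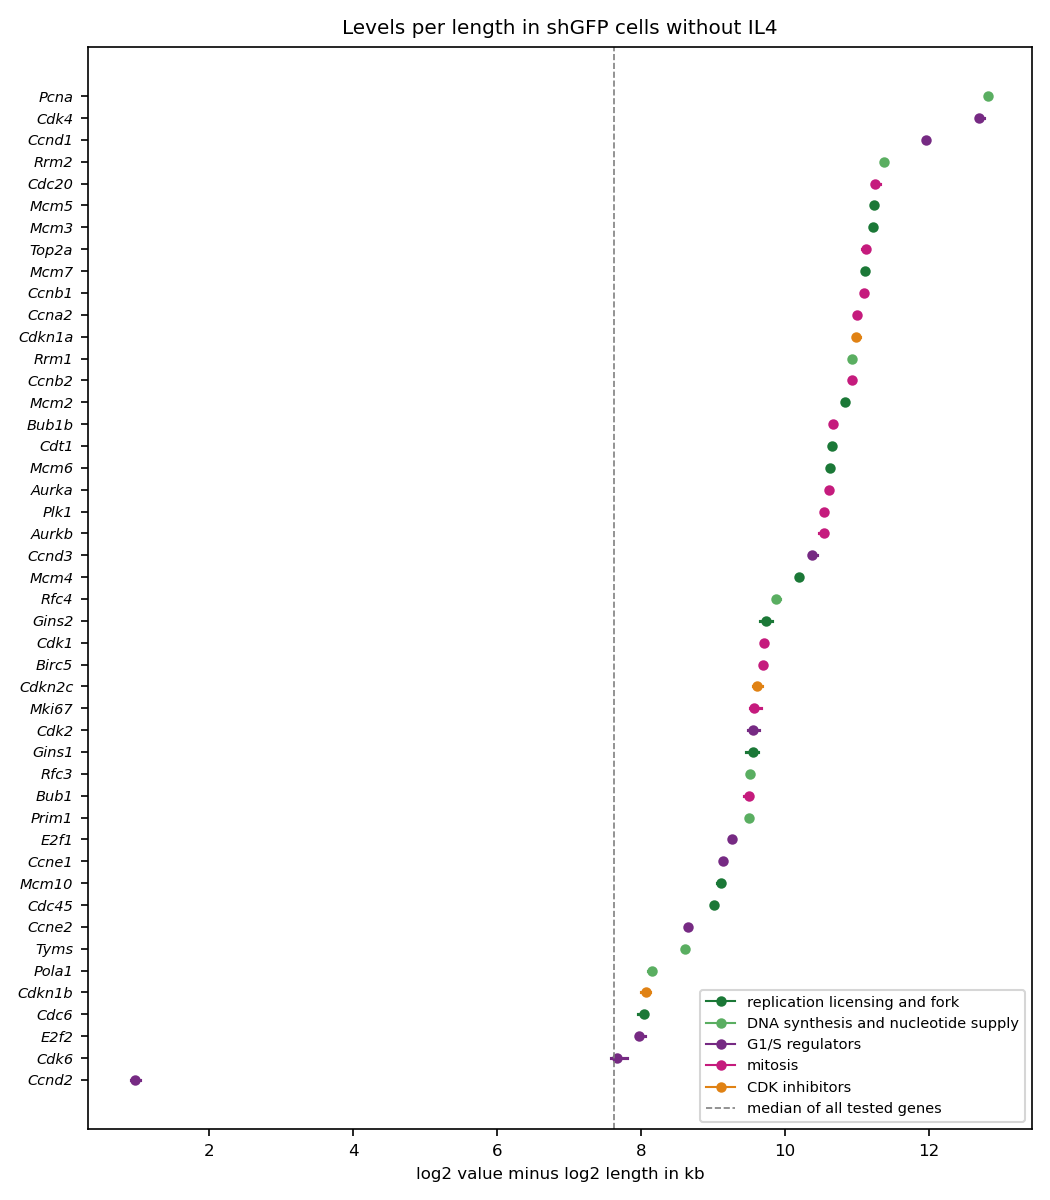
Level per length (log2 value minus log2 length in kb, horizontal axis) of the 46 genes in shGFP RAW cells without IL4, with colours for roles, points for means of 4 libraries and lines that run from the lowest to the highest library (dashed line, median of 12905 tested genes). *Pcna*, *Cdk4* and *Ccnd1* lie at the top and *Ccnd2* alone lies below the dashed line.

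Genes of every role differed between shKDM1A and shGFP cells, those of all roles but the inhibitors in both directions. Without IL4, 10 of the 46 genes were higher in shKDM1A than in shGFP cells and 13 were lower, while 19.7% of the 12905 tested genes were higher and 18.4% lower (38.2% in either direction, by limma with the adjusted p below 0.05). With IL4, 13 were higher and 12 lower, against 20.9% and 19.8% of all genes (40.7% in either direction). The shares of the 46 that moved, 23 and 25 genes, were thus somewhat above the shares of all genes, and the median difference of the 46 was -0.018 and -0.028, close to that of all genes (-0.0027 and -0.0024). The 46 were mostly above the median level and had a smaller median SE than all tested genes (0.026 against 0.032). A call at the same threshold was thus easier for them, and the part of this in the shares was not tested. The 2 comparisons share no libraries. Of the genes called, 14 were called in the same direction in both, which is 60.9% of those called without IL4 and 56.0% of those called with IL4 (65.7% and 61.6% over all tested genes), and of these 9 were higher and 5 lower. *Cdk1* was called in opposite directions, at -0.09 (SE 0.02, adjusted p = 0.0022) and 0.075 (SE 0.02, adjusted p = 0.0078), the second of which was lost with quantile normalization (0.026, adjusted p = 0.35) and without replicates 1 and 3 of the shKDM1A group with IL4 (0.059, adjusted p = 0.088). *Mcm6*, *Cdk6*, *E2f1*, *Cdk1* and *Cdkn1a* passed the test in all 4 comparisons of 2 groups, and *Cdt1*, *Cdc45*, *Gins1*, *Rfc4*, *Cdk2*, *Aurkb* and *Cdkn1b* in none. These are bulk libraries, so a shift in the share of cells in a phase of the cycle and a shift in RNA per cell cannot be told apart.

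**Figure D2:**
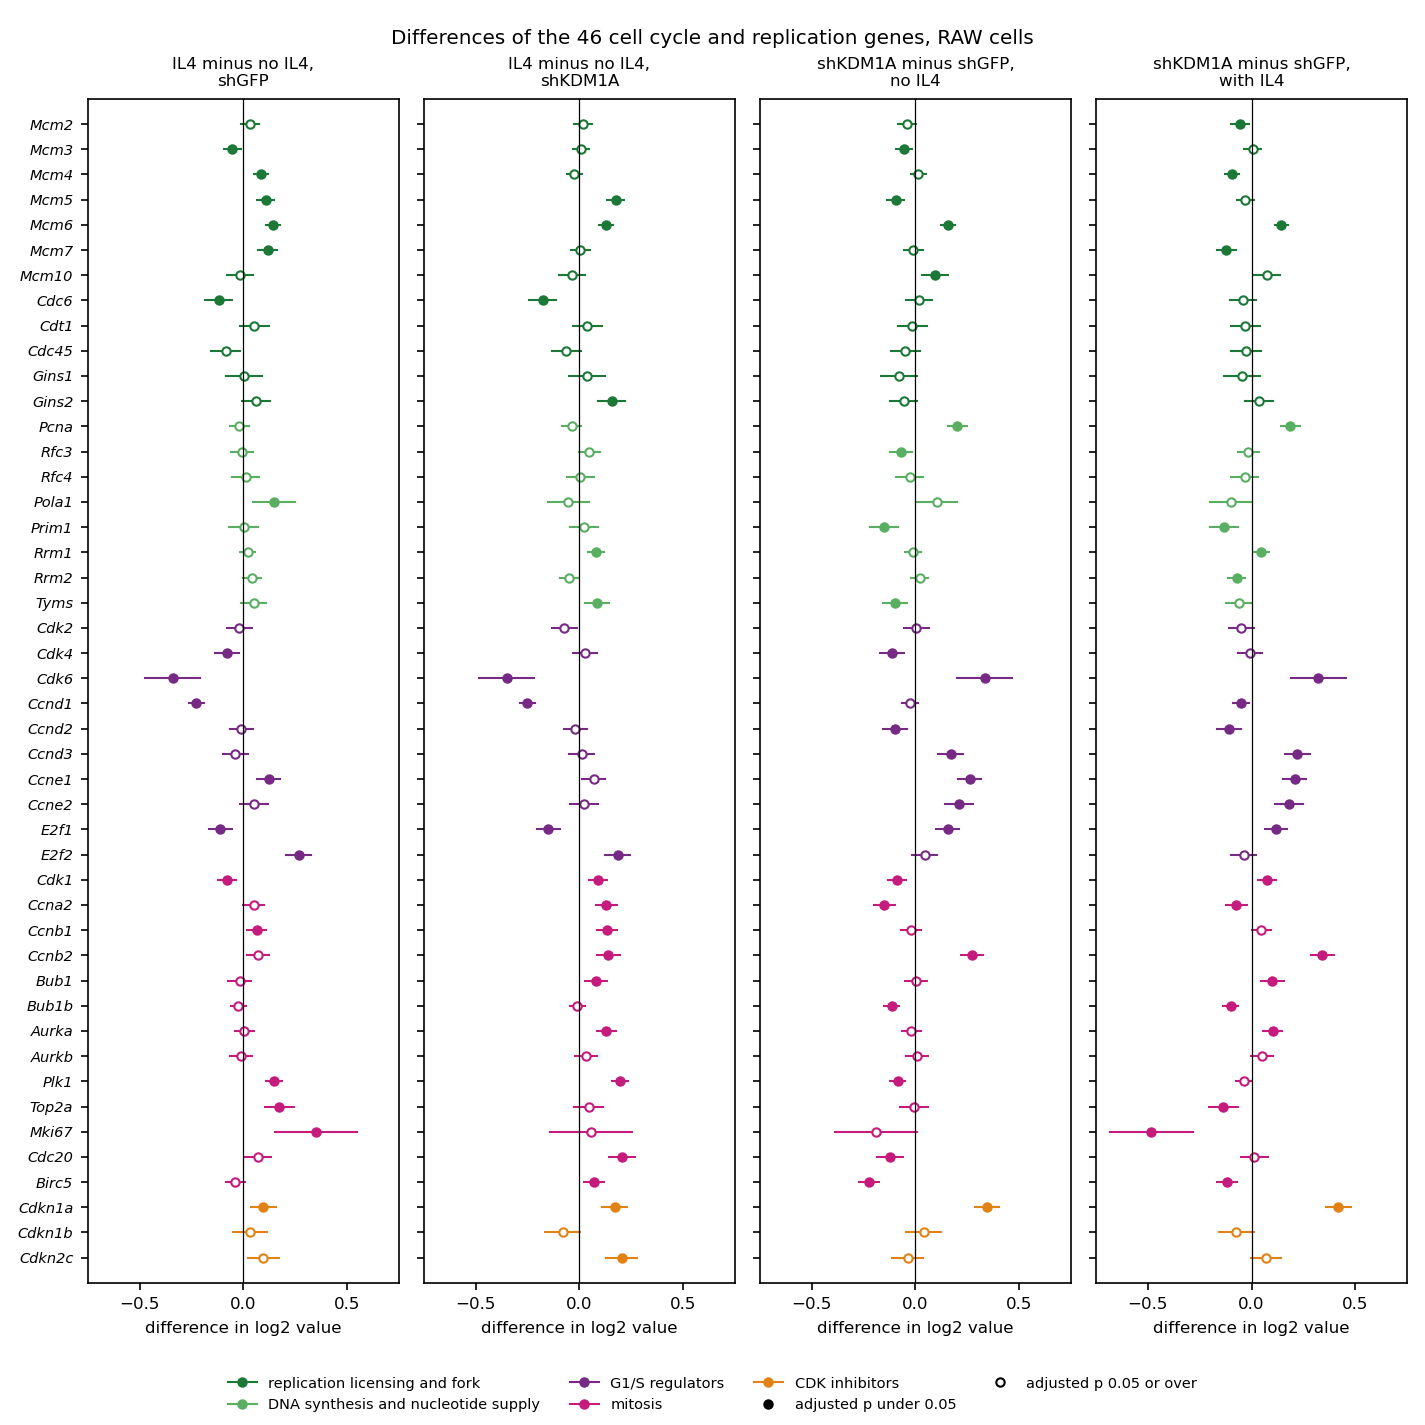
Difference in log2 value (horizontal axis) of each of the 46 genes in the 4 comparisons, with 95% confidence intervals from limma, coloured by role, filled where the adjusted p was under 0.05. *Cdkn1a*, *Cdk6*, *Ccnd3*, *Ccne1*, *Ccne2*, *E2f1*, *Ccnb2*, *Pcna* and *Mcm6* are filled and right of 0 in both knockdown panels, and *Cdk6* and *Ccnd1* are filled and left of 0 in both IL4 panels.

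Of the 3 CDK inhibitors, 1 was called on knockdown (33.3%), both without and with IL4, against 38.2% and 40.7% of all tested genes. *Cdkn1a* (chromosome 17 of mm9 from 29230714 to 29237667), which encodes p21, had log2 values of 11.92, 11.89, 11.87 and 11.97 in shGFP cells without IL4 and 12.29, 12.27, 12.26 and 12.21 in shKDM1A cells without IL4. With IL4 it had 12.02, 12.04, 11.98 and 12.00 in shGFP cells and 12.50, 12.44, 12.40 and 12.37 in shKDM1A cells. The lowest shKDM1A library thus lay above the highest shGFP library, and within each line the IL4 libraries lay above those without IL4. The knockdown difference was 0.34 (SE 0.028, adjusted p = 4.8e-08) without IL4, a 1.27-fold level, and 0.42 (SE 0.028, adjusted p = 4.1e-09) with IL4, a 1.34-fold level. *Cdkn1b* (p27) differed by 0.04 without IL4 (95% interval -0.043 to 0.12) and -0.074 with IL4 (-0.16 to 0.0099), and *Cdkn2c* (p18), an inhibitor of CDK4 and CDK6, by -0.038 (-0.11 to 0.036) and 0.07 (-0.004 to 0.14). None of these 4 differences passed the test.

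Of the 10 regulators of the G1/S step, 5 were higher in shKDM1A cells (50.0%) and 2 lower (20.0%), both without and with IL4, against 19.7% and 18.4% of all tested genes without IL4 and 20.9% and 19.8% with IL4. *Cdk6* (chromosome 5 of mm9 from 3343893 to 3531005) had log2 values of 11.12, 11.21, 11.33 and 11.11 in shGFP cells without IL4 and 11.45, 11.56, 11.56 and 11.54 in shKDM1A cells without IL4. With IL4 the values were 10.89, 10.93, 10.76 and 10.82 in shGFP cells and 10.97, 11.28, 11.18 and 11.27 in shKDM1A cells. Knockdown and control libraries did not overlap under either condition, with differences of 0.33 (SE 0.063, adjusted p = 0.00047) and 0.32 (SE 0.063, adjusted p = 0.00061). At 11512 bases *Cdk6* was the longest transcript of the set and overlaps another annotated gene on the opposite strand, which the counting did not separate. In replicates 1 and 3 of the shKDM1A group with IL4, where long transcripts were low, it was also lowest (10.97 and 11.18). Without these 2 libraries its difference with IL4 was 0.42 (adjusted p = 6e-05).

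Both cyclin E genes were higher in shKDM1A cells, *Ccne1* rising from 10.07, 10.13, 10.08 and 10.08 in shGFP cells to 10.37, 10.32, 10.31 and 10.41 in shKDM1A cells without IL4, a difference of 0.26 (SE 0.026, adjusted p = 5.6e-07), and *Ccne2* by 0.21 (SE 0.031, adjusted p = 5.4e-05). With IL4 the differences were 0.21 (SE 0.026, adjusted p = 7.7e-06) and 0.18 (SE 0.031, adjusted p = 0.00024). Both genes encode partners of CDK2, whose own difference was 0.0045 without IL4 and -0.05 with IL4 and did not pass the test. Of the D-type cyclins, *Ccnd3* was higher on knockdown by 0.17 (SE 0.028, adjusted p = 0.00015) without IL4 and 0.22 (SE 0.028, adjusted p = 9.7e-06) with IL4, and its shKDM1A libraries (11.49 to 11.60) lay above its shGFP libraries (11.29 to 11.42). *Ccnd2* was lower, at -0.10 (SE 0.027, adjusted p = 0.008) and -0.11 (SE 0.027, adjusted p = 0.0041), the second of which was lost with the length trend removed (-0.058, adjusted p = 0.14), but its level was low, with values between 3.37 and 3.57 in all 16 libraries. *Ccnd1*, the most abundant D-type cyclin, differed on knockdown by -0.027 without IL4 (95% interval -0.064 to 0.010, not called) and by -0.051 (SE 0.017, adjusted p = 0.029) with IL4, a call that was lost when any 1 of 5 libraries was left out. *E2f1*, a transcription factor of the licensing and synthesis genes, was higher by 0.15 (SE 0.026, adjusted p = 0.00017) and 0.12 (SE 0.026, adjusted p = 0.0018). *Cdk4* was lower without IL4, at -0.11 (SE 0.027, adjusted p = 0.0032), and its difference with IL4 was -0.006 (95% interval -0.064 to 0.052). *E2f2* passed the test in neither.

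Of the 12 licensing and fork genes, 2 were higher and 2 lower without IL4, and 1 was higher and 3 lower with IL4, a share of 33.3% in each case that was below the 38.2% and 40.7% of all tested genes. *Mcm6* (chromosome 1 of mm9 from 130228152 to 130256282), whose promoter is printed with its E2F letters, had log2 values of 12.75, 12.77, 12.78 and 12.75 in shGFP cells without IL4 and 12.93, 12.91, 12.90 and 12.93 in shKDM1A cells without IL4. With IL4 these were 12.91, 12.90, 12.91 and 12.89 in shGFP cells and 13.03, 13.05, 13.06 and 13.06 in shKDM1A cells. The shKDM1A libraries lay above the shGFP libraries under both conditions, by 0.16 (SE 0.016, adjusted p = 4.7e-07) and 0.14 (SE 0.016, adjusted p = 1.4e-06). No other subunit of the same ring was called higher: without IL4 *Mcm5* was lower at -0.10 (SE 0.019, adjusted p = 0.00077) and *Mcm3* at -0.056 (SE 0.019, adjusted p = 0.028), and with IL4 *Mcm7* was lower at -0.12 (SE 0.021, adjusted p = 0.00023), *Mcm4* at -0.10 (SE 0.016, adjusted p = 0.00019) and *Mcm2* at -0.055 (SE 0.02, adjusted p = 0.037). The calls of *Mcm3* without IL4 and of *Mcm2* with IL4 were lost when any 1 of 5 and any 1 of 6 libraries was left out, and *Mcm7* overlaps exons of *Ap4m1* and *Cops6* on the opposite strand. *Mcm10* was higher without IL4 by 0.095 (SE 0.029, adjusted p = 0.018), a call lost without either of 2 libraries.

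Of the 8 genes of DNA synthesis and nucleotide supply, 1 was higher (12.5%) and 3 lower (37.5%) without IL4, against 19.7% and 18.4% of all tested genes, and 2 were higher (25.0%) and 2 lower (25.0%) with IL4, against 20.9% and 19.8%. *Pcna* had log2 values of 13.16, 13.13, 13.14 and 13.15 in shGFP cells without IL4 and 13.34, 13.31, 13.39 and 13.36 in shKDM1A cells. With IL4 it had 13.12, 13.13, 13.13 and 13.13 in shGFP cells and 13.36, 13.30, 13.34 and 13.26 in shKDM1A cells. All 8 shKDM1A libraries lay above all 8 shGFP libraries, with differences of 0.20 (SE 0.022, adjusted p = 1.3e-06) and 0.19 (SE 0.022, adjusted p = 3.4e-06), or 1.15-fold and 1.14-fold. *Pcna* has annotated pseudogene copies, with which reads could have been shared in the counting. *Prim1*, the catalytic subunit of primase, went the other way, at -0.15 (SE 0.032, adjusted p = 0.0013) and -0.13 (SE 0.032, adjusted p = 0.0035). *Tyms*, which makes thymidylate, was lower without IL4 at -0.10 (SE 0.028, adjusted p = 0.01), and *Rfc3*, a subunit of the clamp loader, at -0.07 (SE 0.024, adjusted p = 0.032), a call lost without any 1 of 4 libraries. The subunits of ribonucleotide reductase parted with IL4, *Rrm1* being higher by 0.047 (SE 0.018, adjusted p = 0.041) and *Rrm2* lower at -0.072 (SE 0.02, adjusted p = 0.0081), the call of *Rrm1* being lost without any 1 of 7 libraries and with quantile normalization (0.005, adjusted p = 0.86). *Rfc4* passed neither test. *Pola1*, of DNA polymerase alpha, differed by 0.10 without IL4 (adjusted p = 0.11) and -0.10 with IL4 (adjusted p = 0.11), and in shKDM1A cells with IL4 its values were 10.53, 10.77, 10.49 and 10.64. Leaving out replicate 2 of that group brought both past the threshold, at 0.10 (adjusted p = 0.03) and -0.15 (adjusted p = 0.0043), whereas without replicates 1 and 3 they were 0.10 (adjusted p = 0.027) and -0.003 (adjusted p = 0.97).

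Mitosis genes moved in both directions on knockdown. Without IL4, 1 of 13 was higher (7.69%) and 6 were lower (46.2%), against 19.7% and 18.4% of all tested genes. With IL4, 4 were higher (30.8%) and 5 lower (38.5%), against 20.9% and 19.8%. *Ccnb2* (chromosome 9 of mm9 from 70255496 to 70269361) was the one that rose in both. Its log2 values were 11.54, 11.51, 11.53 and 11.58 in shGFP cells without IL4 and 11.81, 11.80, 11.79 and 11.85 in shKDM1A cells without IL4. With IL4 they were 11.61, 11.59, 11.60 and 11.64 in shGFP cells and 12.01, 11.88, 11.98 and 11.94 in shKDM1A cells. All shKDM1A libraries lay above all shGFP libraries, by 0.27 (SE 0.026, adjusted p = 3.2e-07) and 0.34 (SE 0.026, adjusted p = 2e-08). *Ccnb1*, the other B-type cyclin, differed by -0.021 (95% interval -0.068 to 0.027) and 0.047 (-0.0001 to 0.094) and passed neither test. Both genes have annotated pseudogenes. *Birc5* (survivin, of the chromosomal passenger complex) had 11.49, 11.45, 11.44 and 11.50 in shGFP cells and 11.27, 11.24, 11.20 and 11.26 in shKDM1A cells without IL4. It fell by 0.23 (SE 0.022, adjusted p = 5.5e-07), and with IL4 the difference was -0.12 (SE 0.022, adjusted p = 0.00052). *Bub1b*, of the spindle checkpoint, was lower at -0.12 (SE 0.018, adjusted p = 6.8e-05) and -0.10 (SE 0.018, adjusted p = 0.00024). *Ccna2* (cyclin A2) was lower at -0.15 (SE 0.024, adjusted p = 9.9e-05) and -0.073 (SE 0.024, adjusted p = 0.022), the second of which was lost without any 1 of 3 libraries. *Plk1* and *Cdc20* were called lower without IL4, at -0.086 (SE 0.017, adjusted p = 0.00097) and -0.12 (SE 0.03, adjusted p = 0.0041). *Bub1* was called higher with IL4, by 0.10 (SE 0.026, adjusted p = 0.0053). So was *Aurka*, by 0.092 to 0.11 in the 16 fits that each left out 1 library (limma, adjusted p from 0.0007 to 0.0054).

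*Mki67* (chromosome 7 of mm9 from 142881471 to 142908062) was called lower on knockdown with IL4. Its log2 values were 12.85, 12.99, 12.93 and 12.84 in shGFP cells without IL4 and 13.19, 13.23, 13.34 and 13.24 with IL4. In shKDM1A cells they were 12.59, 12.73, 12.78 and 12.75 without IL4 and 12.40, 13.00, 12.74 and 12.93 with IL4. The shGFP libraries with IL4 lay above all others, and the shKDM1A libraries with IL4 spread from below the lowest to above the highest library without IL4. With IL4 the knockdown difference was -0.48 (SE 0.093, adjusted p = 0.00058), a 0.715-fold level, and without IL4 it was -0.19 (95% interval -0.39 to 0.0084, adjusted p = 0.13). *Mki67* is a transcript of 10059 bases, and transcripts over 8000 bases as a whole had a median knockdown difference of -0.11 with IL4 and -0.011 without IL4, against -0.00085 and -0.0024 for shorter ones. With replicates 1 and 3 of the shKDM1A group with IL4 left out, the difference with IL4 was -0.29 (adjusted p = 0.0011), and with a trend on length removed from each library it was -0.37 (adjusted p = 0.00014). Without IL4 the corresponding values were -0.19 (adjusted p = 0.0038) and -0.18 (adjusted p = 0.026), so both alternatives brought that difference past the threshold, as did leaving out replicate 1 alone (-0.19, adjusted p = 0.013). *Top2a* (topoisomerase II alpha, 5179 bases) was lower with IL4 at -0.14 (SE 0.033, adjusted p = 0.0033), and at -0.078 (adjusted p = 0.076) without replicates 1 and 3. The part of transcript length in these differences beyond these values was not tested.

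**Figure D3:**
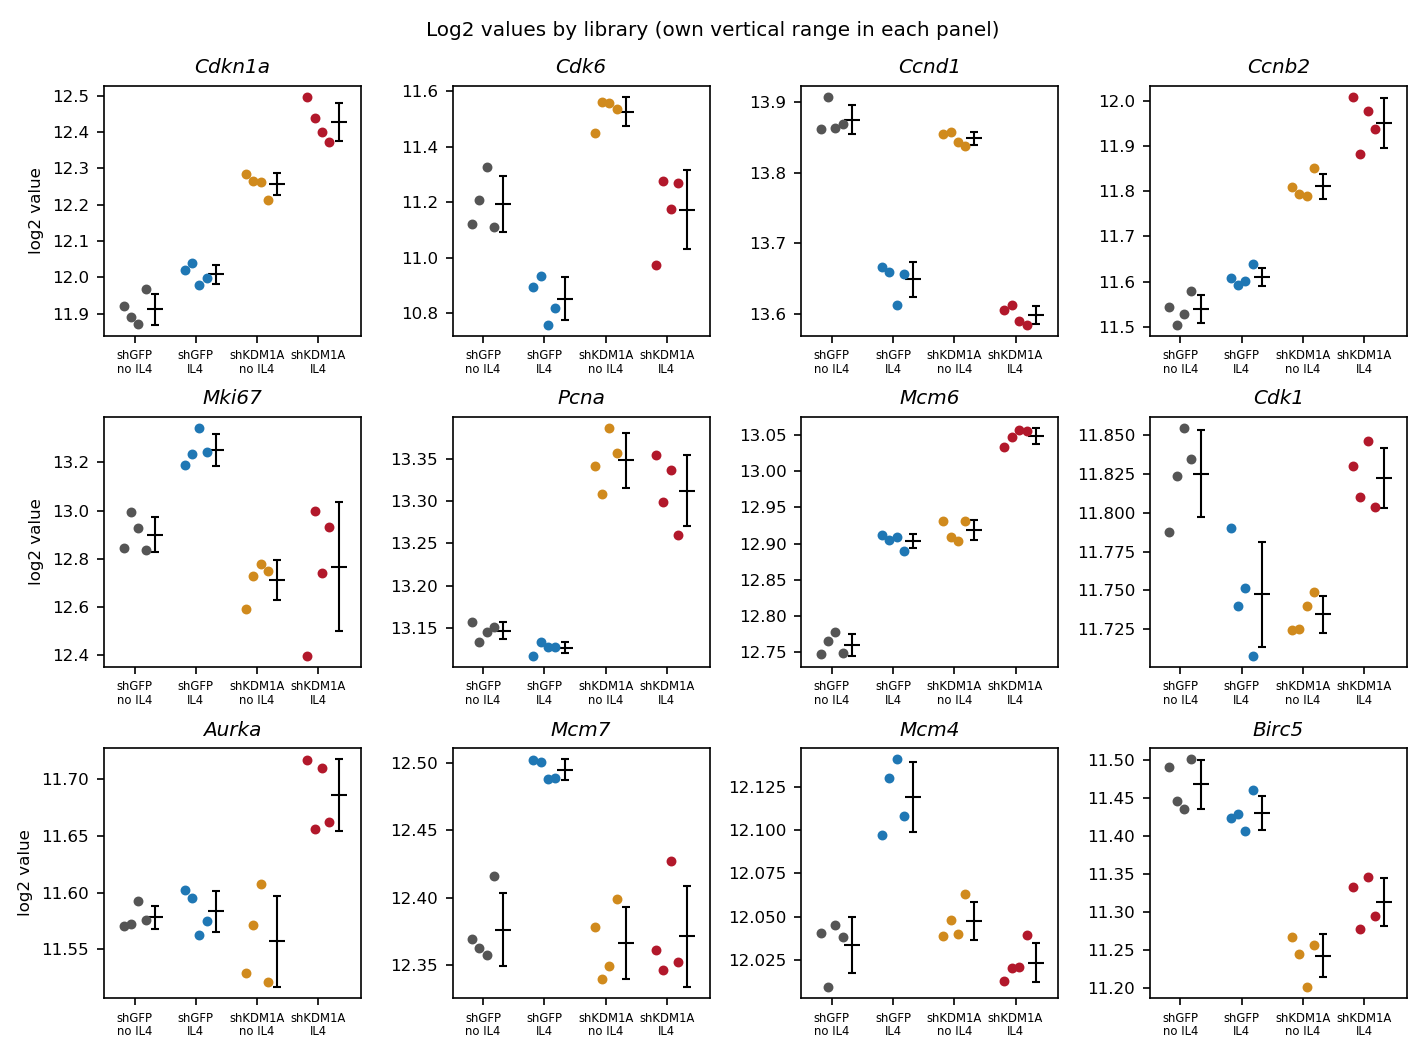
Log2 values (vertical axis, own range in each panel) of 12 genes in each of the 16 RAW libraries, with 4 points per group and the mean with its SD (n = 4) beside them. For *Cdkn1a*, *Ccnb2* and *Pcna* the shKDM1A libraries lie above the shGFP libraries, for *Birc5* below, and the shKDM1A libraries with IL4 of *Mki67* spread from 12.40 to 13.00.

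IL4 was given for 6 h, so these comparisons ask how the cell cycle genes stood early after the stimulus. In shGFP cells 12 of the 46 genes were higher with IL4 and 7 lower, against 13.1% and 13.7% of all tested genes (26.9% in either direction). In shKDM1A cells 17 were higher and 4 lower, against 13.6% and 13.5% (27.1% in either direction). As in the knockdown comparisons, the 46 had a smaller median SE than all tested genes (0.026 against 0.032), whose part in these shares was not tested. The median difference of the 46 was 0.027 and 0.034, and that of all genes -0.00049 and -0.0025. These comparisons share no libraries with each other, and 10 genes were called in the same direction in both (6 higher, 4 lower), 52.6% of those called in shGFP cells and 47.6% of those called in shKDM1A cells, against 53.8% and 53.3% over all tested genes. By role, mitosis genes were called higher in 4 of 13 in shGFP cells and in 9 of 13 in shKDM1A cells. By limma 1 was lower in shGFP cells and 0 in shKDM1A cells, where 0 had a lower value at an unadjusted p under 0.05. G1/S regulators were called lower in 4 and 3 of 10 and higher in 2 and 1.

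*Ccnd1* and *Cdk6*, a cyclin and its kinase, were lower with IL4 in both lines. *Ccnd1* (chromosome 7 of mm9 from 152115836 to 152125830) had log2 values of 13.86, 13.91, 13.86 and 13.87 in shGFP cells without IL4 and 13.67, 13.66, 13.61 and 13.66 with IL4. In shKDM1A cells it had 13.86, 13.86, 13.84 and 13.84 without IL4 and 13.60, 13.61, 13.59 and 13.58 with IL4. The groups did not overlap, and the IL4 difference was -0.23 (SE 0.017, adjusted p = 4.4e-08) in shGFP cells and -0.25 (SE 0.017, adjusted p = 1.4e-08) in shKDM1A cells, or 0.854-fold and 0.84-fold. For *Cdk6*, with the library values given with the knockdown, the difference was -0.34 (SE 0.063, adjusted p = 0.0006) and -0.35 (SE 0.063, adjusted p = 0.00045), the latter -0.25 (adjusted p = 0.0059) without replicates 1 and 3 of the shKDM1A group with IL4. *E2f1* was lower at -0.11 (SE 0.026, adjusted p = 0.0041) and -0.15 (SE 0.026, adjusted p = 0.00038), and *Cdc6*, which loads the helicase, at -0.12 (SE 0.03, adjusted p = 0.0077) and -0.18 (SE 0.03, adjusted p = 0.00032). *E2f2* moved the opposite way to *E2f1*. It had 10.21, 10.33, 10.24 and 10.22 without and 10.50, 10.55, 10.52 and 10.50 with IL4 in shGFP cells, a difference of 0.27 (SE 0.028, adjusted p = 2e-06), and 0.18 (SE 0.028, adjusted p = 0.00011) in shKDM1A cells. *Ccne1* was higher in shGFP cells by 0.12 (SE 0.026, adjusted p = 0.002) and *Cdk4* lower at -0.081 (SE 0.027, adjusted p = 0.037), with differences in shKDM1A cells of 0.07 (95% interval 0.015 to 0.13) and 0.028 (-0.03 to 0.085). *Ccnd2* and *Ccnd3* differed by -0.0098 and -0.039 in shGFP cells and by -0.019 and 0.012 in shKDM1A cells, none past the threshold. *Ccnd1* exons overlap *Oraov1* on the opposite strand, which the counting did not separate.

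Among replication genes, *Mcm5* and *Mcm6* were higher with IL4 in both lines. *Mcm5* (chromosome 8 of mm9 from 77633408 to 77652338) had 12.99, 13.02, 13.03 and 13.02 in shGFP cells without IL4 and 13.09, 13.12, 13.14 and 13.14 with IL4, a difference of 0.11 (SE 0.019, adjusted p = 0.00043). In shKDM1A cells it had 12.93, 12.90, 12.92 and 12.91 without IL4 and 13.12, 13.09, 13.10 and 13.05 with IL4, a difference of 0.17 (SE 0.019, adjusted p = 3.3e-06). *Mcm6* rose by 0.14 (SE 0.016, adjusted p = 2.5e-06) and 0.13 (SE 0.016, adjusted p = 9e-06). *Gins2*, of the GINS complex of the helicase, was higher in shKDM1A cells by 0.16 (SE 0.031, adjusted p = 0.0013), and its difference in shGFP cells was 0.063 (95% interval -0.0041 to 0.13), a value that was 0.038 (adjusted p = 0.43) without shGFP replicate 3 and 0.093 (adjusted p = 0.027) without shGFP replicate 4. *Mcm3* was called lower in shGFP cells, at -0.053 (SE 0.019, adjusted p = 0.049), a call lost in 13 of 16 fits that each left out 1 library. *Mcm2* differed by 0.032 and 0.019 and *Pcna* by -0.02 and -0.036, none of which passed the test. Of the synthesis genes, *Pola1* (5308 bases) was higher in shGFP cells by 0.15 (SE 0.047, adjusted p = 0.03), and *Rrm1* and *Tyms* in shKDM1A cells by 0.081 (SE 0.018, adjusted p = 0.0023) and 0.086 (SE 0.028, adjusted p = 0.03). The calls of *Pola1* and *Tyms* were each lost without any 1 of 4 libraries.

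Mitosis genes were called higher more often than lower in both lines. *Plk1*, a kinase of mitotic entry and exit, was higher in both lines, by 0.15 (SE 0.017, adjusted p = 6.5e-06) and 0.20 (SE 0.017, adjusted p = 2.9e-07). *Cdc20* had 11.98, 11.99, 11.94 and 11.92 in shKDM1A cells without IL4 and 12.23, 12.11, 12.19 and 12.11 with IL4, a difference of 0.20 (SE 0.03, adjusted p = 7.2e-05), and 0.069 in shGFP cells (95% interval 0.0059 to 0.13, adjusted p = 0.10). *Ccnb1* was higher by 0.064 (SE 0.022, adjusted p = 0.042) and 0.13 (SE 0.022, adjusted p = 0.00027), the first of which was lost in 10 of 16 fits that left out 1 library. *Ccnb2* and *Ccna2* were higher in shKDM1A cells by 0.14 (SE 0.026, adjusted p = 0.00062) and 0.13 (SE 0.024, adjusted p = 0.00066). *Bub1* and *Birc5* were called there too, by 0.08 (SE 0.026, adjusted p = 0.029) and 0.071 (SE 0.022, adjusted p = 0.028), each lost without any 1 of 4 libraries. In shGFP cells *Mki67* was higher by 0.35 (SE 0.093, adjusted p = 0.01) and *Top2a* by 0.17 (SE 0.033, adjusted p = 0.00075), while in shKDM1A cells the differences were 0.057 (95% interval -0.14 to 0.25) and 0.045 (-0.025 to 0.11). Transcripts over 8000 bases had a median IL4 difference of 0.051 in shGFP cells and -0.052 in shKDM1A cells. Without replicates 1 and 3 of the shKDM1A group with IL4, the difference of *Mki67* in shKDM1A cells was 0.25 (adjusted p = 0.0041), and without replicate 1 alone it was 0.18 (adjusted p = 0.04). That of *Top2a* was 0.10 (adjusted p = 0.032) without both. Of the inhibitors, *Cdkn1a* was higher by 0.10 (SE 0.028, adjusted p = 0.017) in shGFP cells and 0.17 (SE 0.028, adjusted p = 0.00022) in shKDM1A cells, the first lost without either of 2 libraries. *Cdkn2c* was higher by 0.20 (SE 0.035, adjusted p = 0.00031) in shKDM1A cells and by 0.10 in shGFP cells, just short of the threshold (adjusted p = 0.051). *Cdkn1b* was called in neither.

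The IL4 response itself differed between the lines in 4 of the 46 genes, 2 with a more positive and 2 with a more negative response in shKDM1A cells, against 3.56% and 2.57% of all genes (6.13% in either direction). *Cdk1* (chromosome 10 of mm9 from 68797896 to 68815660) had log2 values of 11.79, 11.82, 11.85 and 11.83 in shGFP cells without IL4 and 11.79, 11.74, 11.75 and 11.71 with IL4, a difference of -0.078 (SE 0.02, adjusted p = 0.0093). In shKDM1A cells it had 11.72, 11.72, 11.74 and 11.75 without IL4 and 11.83, 11.81, 11.85 and 11.80 with IL4, a difference of 0.088 (SE 0.02, adjusted p = 0.0039). The shGFP groups met at 11.79 and the shKDM1A groups did not overlap. *Cdk1* was thus lower with IL4 in shGFP and higher in shKDM1A cells, the latter short of the threshold without replicates 1 and 3 (0.072, adjusted p = 0.055), and the difference of the responses was 0.17 (SE 0.029, adjusted p = 0.0028). *Aurka*, a kinase of the spindle poles, had 11.53, 11.57, 11.61 and 11.52 without and 11.72, 11.66, 11.71 and 11.66 with IL4 in shKDM1A cells, a difference of 0.13 (SE 0.022, adjusted p = 0.00028), and 0.0055 in shGFP cells (95% interval -0.041 to 0.052). The IL4 libraries of shKDM1A cells lay above those without IL4, and the responses differed by 0.12 (SE 0.031, adjusted p = 0.027). *Mcm4* rose with IL4 in shGFP cells, from 12.04, 12.01, 12.05 and 12.04 to 12.10, 12.13, 12.14 and 12.11, by 0.085 (SE 0.016, adjusted p = 0.00086), and differed by -0.024 in shKDM1A cells, so that the responses differed by -0.11 (SE 0.023, adjusted p = 0.011). *Mcm7* rose in shGFP cells from 12.37, 12.36, 12.36 and 12.42 to 12.50, 12.50, 12.49 and 12.49, by 0.12 (SE 0.021, adjusted p = 0.00052), and differed by 0.005 in shKDM1A cells, where the groups overlapped, with responses that differed by -0.11 (SE 0.03, adjusted p = 0.037). The call of *Mcm7* was lost in 13 of 16 fits that left out 1 library, and that of *Aurka* in 4. Without replicates 1 and 3 of the shKDM1A group with IL4, *Cdk1* and *Mcm7* differed by 0.15 (adjusted p = 0.023) and -0.14 (adjusted p = 0.025), *Mcm4* by -0.10 (adjusted p = 0.056) and *Aurka* by 0.10 (adjusted p = 0.14). The responses of *Mki67* differed by -0.29 (95% interval -0.57 to -0.013, adjusted p = 0.20), or -0.17 (adjusted p = 0.27) without replicate 1 and -0.10 (adjusted p = 0.58) without replicates 1 and 3 of that group. The responses of *Pola1* differed by -0.20 (adjusted p = 0.086), or -0.25 (adjusted p = 0.0078) without replicate 2 of that group.

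**Figure D4:**
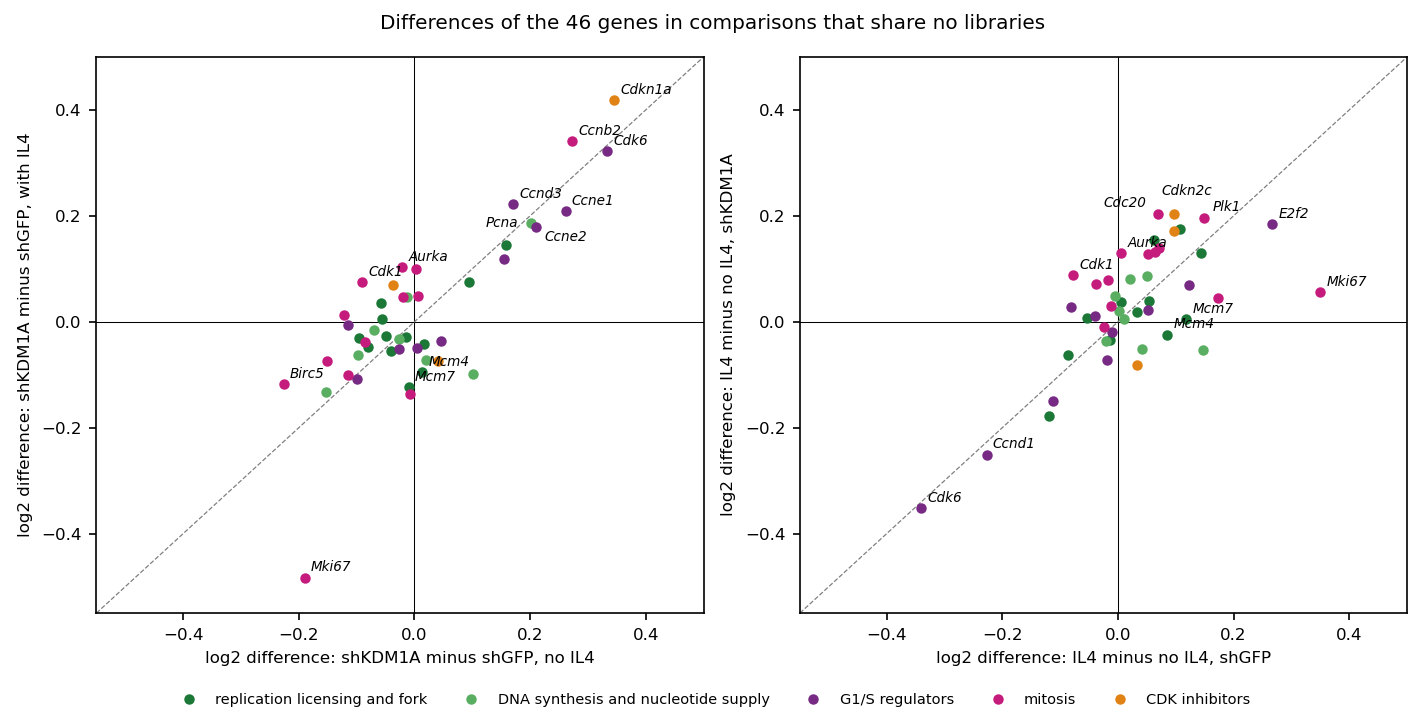
Differences in log2 value of the 46 genes in pairs of comparisons that share no libraries, knockdown without IL4 against with IL4 (left) and IL4 in shGFP against IL4 in shKDM1A cells (right), coloured by role, with the line of equal difference dashed. *Cdkn1a*, *Cdk6* and *Ccnb2* lie at the upper right on the left, *Cdk6* and *Ccnd1* at the lower left on the right, and *Mki67* lies off the line in both.

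Another 113 genes of the same pathways were looked up, of which 112 were listed in RAW cells and 109 tested. On knockdown without IL4, 12 were higher (11.0%) and 31 lower (28.4%), against 19.7% and 18.4% of all tested genes, and with IL4, 12 were higher (11.0%) and 34 lower (31.2%), against 20.9% and 19.8%. Of 43 other replication genes, 2 were higher and 12 lower without IL4, and 4 and 12 with IL4. *Tipin*, of the fork protection complex, rose by 0.30 (SE 0.022, adjusted p = 1.1e-08) and 0.38 (SE 0.022, adjusted p = 6.1e-10), and *Cdc7*, the kinase that starts origins, was lower at -0.23 (SE 0.028, adjusted p = 7.7e-06) and -0.24 (SE 0.028, adjusted p = 4.5e-06). Of 42 other mitosis genes, 4 were higher and 11 lower without IL4, and 6 and 14 with IL4. *Kif23*, a kinesin of cytokinesis, rose by 0.45 (SE 0.022, adjusted p = 8.7e-11) and 0.41 (SE 0.022, adjusted p = 2.2e-10), in the first case more than any of the 46. *Cdc25c*, the phosphatase that activates CDK1, was the lowest of them without IL4 at -0.21 (SE 0.032, adjusted p = 5.5e-05), and with IL4 it was *Cenpf*, of the kinetochore, at -0.25 (SE 0.077, adjusted p = 0.018), a call lost without replicate 1 (-0.17, adjusted p = 0.065) or 3 (-0.22, adjusted p = 0.054) of the shKDM1A group with IL4, and at -0.10 (adjusted p = 0.32) without both. Of 15 other G1/S regulators, 3 were higher and 5 lower without IL4, and 0 and 6 with IL4, where 0 had a higher value at an unadjusted p under 0.05 (limma). *Tfdp2*, a partner of E2F, was higher without IL4 by 0.14 (SE 0.047, adjusted p = 0.027), which was lost without shGFP replicate 1 or shKDM1A replicate 2 or 3 (adjusted p up to 0.098) and with no filter on low values (0.14, adjusted p = 0.053), and *E2f4* was lower at -0.16 (SE 0.037, adjusted p = 0.0022), as was *E2f8*, which represses E2F targets, with IL4 at -0.17 (SE 0.027, adjusted p = 0.0001). Of 9 other inhibitors and p53 targets tested, 3 were higher and 3 lower without IL4, and 2 and 2 with IL4. *Mdm2*, which holds p53 down and is its target, rose by 0.29 (SE 0.027, adjusted p = 2.7e-07) and 0.36 (SE 0.027, adjusted p = 2e-08), whereas *Phlda3*, another p53 target, was lower at -0.32 (SE 0.031, adjusted p = 3.7e-07) and -0.17 (SE 0.031, adjusted p = 0.0003).

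With IL4, shGFP cells had 23 of these 109 genes higher (21.1%) and 15 lower (13.8%), against 13.1% and 13.7% of all tested genes. In shKDM1A cells 23 were higher (21.1%) and 6 lower (5.50%), against 13.6% and 13.5%. *Lig1*, the ligase that joins Okazaki fragments, rose in shGFP cells by 0.20 (SE 0.018, adjusted p = 2.9e-07), and *Gins3* was lower in both lines, at -0.23 (SE 0.032, adjusted p = 5.3e-05) and -0.15 (SE 0.032, adjusted p = 0.0019). *Dut*, which keeps uracil out of DNA, was higher in shKDM1A cells by 0.16 (SE 0.024, adjusted p = 0.00013). *Kif20a*, a kinesin of the central spindle, had the highest called difference of the other mitosis genes in shKDM1A cells at 0.18 (SE 0.02, adjusted p = 5e-06), and *Ncapd2*, of condensin, in shGFP cells at 0.16 (SE 0.026, adjusted p = 0.00017). *Cenpa*, the centromeric histone, was lower in shGFP cells at -0.11 (SE 0.024, adjusted p = 0.0024). Of the other G1/S regulators, *E2f7* was higher and *Skp2*, which targets p27 for degradation, lower in shGFP cells, at 0.20 (SE 0.042, adjusted p = 0.0021) and -0.17 (SE 0.027, adjusted p = 0.00016). In shKDM1A cells *Mybl2*, of the complex that reads CHR promoters, was higher at 0.12 (SE 0.023, adjusted p = 0.00076) and *Rb1*, the retinoblastoma gene, lower at -0.16 (SE 0.035, adjusted p = 0.0022). Of the other inhibitors and p53 targets 0 of 9 were called higher in either line by limma (1 at an unadjusted p under 0.05), *Bax* being lower in shGFP cells at -0.19 (SE 0.034, adjusted p = 0.00053) and *Sesn2* in shKDM1A cells at -0.27 (SE 0.038, adjusted p = 4.2e-05).

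Of the 46 genes, 12 overlap exons of another annotated gene on the opposite strand (*Ccna2*, *Ccnd1*, *Ccnd3*, *Ccne2*, *Cdc20*, *Cdc45*, *Cdk4*, *Cdk6*, *Gins2*, *Mcm7*, *Rfc4* and *Tyms*), and 5 have annotated pseudogenes (*Pcna*, *Tyms*, *Ccnd3*, *Ccnb1* and *Ccnb2*). Reads were counted on both strands, so their values are uncertain to the extent that reads were shared. Of 88 calls of these genes in the 4 comparisons of 2 groups, 73 were kept whichever library was left out, and the 15 that were lost had differences of at most 0.15 on the log2 scale.

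With libraries named by group and replicate number, the knockdown calls without IL4 that rested on single libraries were those of *Mcm3*, lost without shGFP 1, 2 or 4 or shKDM1A 1 or 2 (adjusted p up to 0.086), *Mcm10*, lost without shGFP 3 or shKDM1A 4 (adjusted p up to 0.066), and *Rfc3*, lost without shGFP 1 or 3 or shKDM1A 2 or 4 (adjusted p up to 0.10). With IL4 they were those of *Mcm2*, lost without shGFP IL4 1, 2 or 3 or shKDM1A IL4 2, 3 or 4 (adjusted p up to 0.10), and *Rrm1*, lost without shGFP 2, shGFP IL4 2, 3 or 4 or shKDM1A IL4 2, 3 or 4 (adjusted p up to 0.13). The call of *Ccnd1* was lost without shGFP IL4 1, 2 or 4 or shKDM1A IL4 3 or 4 (adjusted p up to 0.081) and that of *Ccna2* without shGFP IL4 4 or shKDM1A IL4 1 or 2 (adjusted p up to 0.075). Of the IL4 calls in shGFP cells, that of *Cdkn1a* was lost without shGFP 3 or shGFP IL4 2 (adjusted p up to 0.056), that of *Pola1* without shGFP 2 or 4 or shGFP IL4 3 or 4 (adjusted p up to 0.087) and that of *Cdk4* without shGFP 1 or 4 or shGFP IL4 1, 2, 3 or 4 (adjusted p up to 0.13). For *Ccnb1* and *Mcm3* the adjusted p rose to 0.12 and 0.15. In shKDM1A cells the IL4 call of *Tyms* was lost without shKDM1A 3 or 4 or shKDM1A IL4 1 or 4 (adjusted p up to 0.095), that of *Bub1* without shKDM1A 2 or 3 or shKDM1A IL4 2 or 4 (adjusted p up to 0.085) and that of *Birc5* without shKDM1A 2 or 3 or shKDM1A IL4 1 or 3 (adjusted p up to 0.095). The difference in IL4 response of *Aurka* was lost without shGFP IL4 3, shKDM1A 4 or shKDM1A IL4 1 or 3 (adjusted p up to 0.058), and for *Mcm7* the adjusted p rose to 0.076.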

How the data were processed

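RNA was measured by RNA-seq in 16 libraries of RAW cells, 4 per group, and in BMDMs. The authors aligned reads to mm9 and counted them over exons on both strands with HOMER, keeping 1 transcript per gene. The deposited values used here are other than raw counts: log2-scale moderated values that the authors obtained through HOMER and DESeq2, whose transformation is not named in the sources used here. Per the labels, aligners were HISAT2 and Bowtie2, with no version given. Columns of the authors' own comparisons (log2 fold changes and p-values), which are all the BMDM table holds, were not used. Per-sample columns left unused numbered 0.

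The 46 genes and all gene lists were chosen with earlier results of these data known. Genes whose log2 value reached 1 in 4 or more libraries were kept (12905 of 25094). As the values are not counts, one linear model of the 4 group means was fitted across all kept genes with limma 3.58.1 (R 4.3.3), without a replicate block, and p-values were adjusted by the Benjamini-Hochberg method within each comparison over all kept genes, with a threshold of 0.05. Genes are named as the strongest call in each direction by role and comparison, plus the CDK inhibitors, the D-type cyclins, *Mki67*, *Pcna*, *Top2a* and *Mcm2*. Others were named after their values were seen. On simulated data with 200 of 12905 genes changed by 0.5 (log2) in the comparison of IL4 in shGFP cells, 200 were recovered with 14 false calls. That change was larger than any difference of the 46 genes (the largest was -0.48), and noise was drawn independently for each library. Recovery of smaller changes, and false calls under shifts shared by many genes of a library, were therefore not tested. Depth was 17554721 to 27782568 tags per library. Same-numbered libraries were not treated as pairs, since only 3 of 24 such pairs correlated above 0.1. In transcripts over 8000 bases, however, replicate 1 lay below and replicate 2 above the group mean in all 4 groups, which the main model does not take up. Alternatives were another filter, centring, quantile normalization, a trended prior, the 2 groups alone, a replicate block and leaving out each library. Removal of a length trend and omission of 2 libraries together were chosen after seeing the data. Positions are mm9 from the deposited table, and promoters are from RefSeq (GRCm38.p6).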

Additional observations from a re-analysis of the deposited data

Results flagged for a closer look

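In 184 groups of 4 libraries (46 genes in 4 groups), 5 had 1 library that stood apart from the other 3 by Dixon's criterion, where chance alone marks about 1 in 20 groups. Without IL4, 1 shKDM1A library had the highest *Mcm10* value at 11.05 (others 10.97 to 10.98), 1 the lowest *Rfc4* value at 10.07 (others 10.13 to 10.14) and 1 the highest *Aurkb* value at 11.55 (others 11.49 to 11.50). One shGFP library without IL4 had the highest *Ccnd1* value at 13.91 (others 13.86 to 13.87), and 1 shGFP library with IL4 the highest *Top2a* value at 13.68 (others at 13.66).

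The test of the difference in IL4 response (shKDM1A minus shGFP, limma) was passed by 4 genes, at 0.17 for *Cdk1*, 0.12 for *Aurka*, -0.11 for *Mcm4* and -0.11 for *Mcm7*.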

How the results depend on the processing

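The number of the 46 genes called was 19 for IL4 in shGFP cells, 21 for IL4 in shKDM1A cells, 23 for the knockdown without IL4 and 25 with IL4. With 1 library left out it ran from 15 to 21, 18 to 22, 21 to 24 and 22 to 26, and every other alternative stayed within 1.5 times. With the replicate block it was 16, 20, 23 and 24, and 3 in place of 4 for the difference in IL4 response. Replicate numbers mark no shared source in the labels, 3 of 24 same-numbered pairs of libraries correlated above 0.1 and 6 of 16 libraries correlated best with their own number, so the block result is given only here. In transcripts over 8000 bases, however, replicate 1 lay below its group mean (median deviation -0.098 to -0.016) and replicate 2 above it (0.015 to 0.091) in all 4 groups. The number of genes with a different IL4 response was 4, ran from 2 to 7 with 1 library left out, and was 2 without shKDM1A IL4 replicates 1 and 3. It was 2 without shGFP IL4 replicate 3 or shKDM1A replicate 4, and 7 without shKDM1A IL4 replicate 2. No called difference of the 46 genes changed sign under any alternative run. Over all 5 comparisons the calls of the 46 genes that were lost numbered 8 with the block, 7 with the stricter filter, 7 with quantile normalization, 7 with only the 2 groups compared, 4 with median centring, 3 with the trended prior, 1 with no filter, 6 with the length trend removed and 9 without shKDM1A IL4 replicates 1 and 3. The block lost the IL4 calls in shGFP cells of *Mcm3*, *Pola1*, *Cdk4* and *Ccnb1*, that in shKDM1A cells of *Bub1*, the knockdown calls with IL4 of *Mcm2* and *Rrm1* and the response difference of *Mcm7*. Calls lost that did not rest on 1 library were, for the knockdown with IL4, *Cdk1* (quantile normalization, and without replicates 1 and 3), *Top2a* (without replicates 1 and 3) and *Ccnd2* (length trend removed, adjusted p = 0.14), and, without replicates 1 and 3, the IL4 call of *Cdk1* in shKDM1A cells and the response difference of *Mcm4*. The response difference of *Mcm7* was also lost with the stricter filter (adjusted p = 0.065) and median centring (0.065), and that of *Aurka* with quantile normalization (0.052) and with the length trend removed (0.058). The cause of these changes was not tested. Values are moderated, so differences of genes with few reads, such as *Ccnd2*, are understated, and raw counts were not used here.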
